A study of Mus musculus with 32 samples.

Results

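Striatal RNA from YAC128 mice that had received a scrambled oligonucleotide was compared with that of wild-type (WT) mice that had received artificial cerebrospinal fluid (aCSF). The comparison takes 16 of the 32 libraries in the series, 8 scrambled-treated YAC128 and 8 WT, selected by the genotype and treatment in their titles and described across all genes. YAC128 mice carry a yeast artificial chromosome with the full-length human huntingtin gene, whose polyglutamine stretch is expanded, and are a model of Huntington disease. Per the labels, solutions went into the lateral ventricle 3 times, first at about 6 months of age and again 2 and 4 weeks later, and striatum was collected at 12 months. Scrambled-treated YAC128 mice received 500 µg of oligonucleotide in 10 µL of aCSF at each injection, and WT mice 10 µL of aCSF alone. The other 16 libraries come from YAC128 mice given AON12.1, the antisense oligonucleotide of the study, at the same dose, and from YAC128 mice given aCSF, with 8 libraries each. WT mice given a scrambled oligonucleotide were not analysed here. The scrambled-treated and WT mice therefore differ in both genotype and injected solution, and these cannot be told apart from this pair of groups alone.

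The striatum consists mostly of GABA-releasing projection neurons, which form the direct pathway (marked by dopamine receptor D1, substance P and dynorphin) and the indirect pathway (dopamine receptor D2, the adenosine receptor Adora2a and enkephalin). Loss of enkephalin, Adora2a and DARPP-32 messages from these neurons is a known feature of Huntington models. Oligodendrocytes, astrocytes and microglia share the tissue, and oligonucleotides delivered into cerebrospinal fluid are known to reach glia as well as neurons. In pooled tissue RNA, fewer cells of a type and less RNA per cell cannot be told apart.

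The scrambled libraries held 743457 to 1419313 gene counts and the WT libraries 659490 to 1153050, and the median standard error (SE) of a log2 fold change was 0.16. Projection neuron messages were abundant in all 16 libraries, with the enkephalin precursor Penk at no less than 1340 TMM-normalized CPM, the count scaled to a common library size. The share of counts outside any annotated feature was 19.9% to 26.8% in scrambled libraries (mean 22.1% ± 2.41, SD, n = 8) and 16.3% to 30.2% in WT libraries (mean 19.5% ± 4.40, SD, n = 8). WT replicate 1 alone stood at 30.2%, and the next WT library at 19.2%. The difference of 2.61 percentage points had p = 0.170 (exact permutation test, two-sided), and without WT replicate 1 it was 4.13 points (exact p = 0.000466). For the animal number series that begins with 19 (6 scrambled and 5 WT libraries) the difference was 4.03 points with exact p = 0.00649. For the series that begins with 18 (2 scrambled and 3 WT libraries) it was 0.28 points with exact p = 1. So few libraries cannot give a p under 0.05 in this test, whatever their values. A fit with this share as a covariate is given beside the counts of called genes.

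Between scrambled-treated YAC128 and WT striatum, 18 of 10679 tested genes (0.169%) were called, 14 higher (0.131%) and 4 lower (0.0375%). The genes that rose include the oligodendrocyte phosphodiesterase Enpp6, the myeloid and microglial genes Lyz2 and C1qa, the progranulin gene Grn, the brain methyltransferase Prmt8 and a feature without a mouse identifier. The genes that fell were Qdpr, Etnppl, Igfbp4 and Ndrg2, of which Etnppl and Ndrg2 are mainly expressed by astrocytes and Qdpr is abundant in oligodendrocytes. A gene was called at a p under 0.05 after Benjamini-Hochberg adjustment across the tested genes, from the quasi-likelihood test of edgeR, which is the source of all adjusted p-values given here. At an unadjusted p under 0.05 there were 1047 genes (9.8%). In 11 genes (0.103%) no scrambled library overlapped a WT library, and 6 of these were among the called ones. Without WT replicate 3 or without WT replicate 8 the count of called genes was 10, and in a fit that takes the no-feature share as covariate it was 28, which held all 18.

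**Figure D1:**
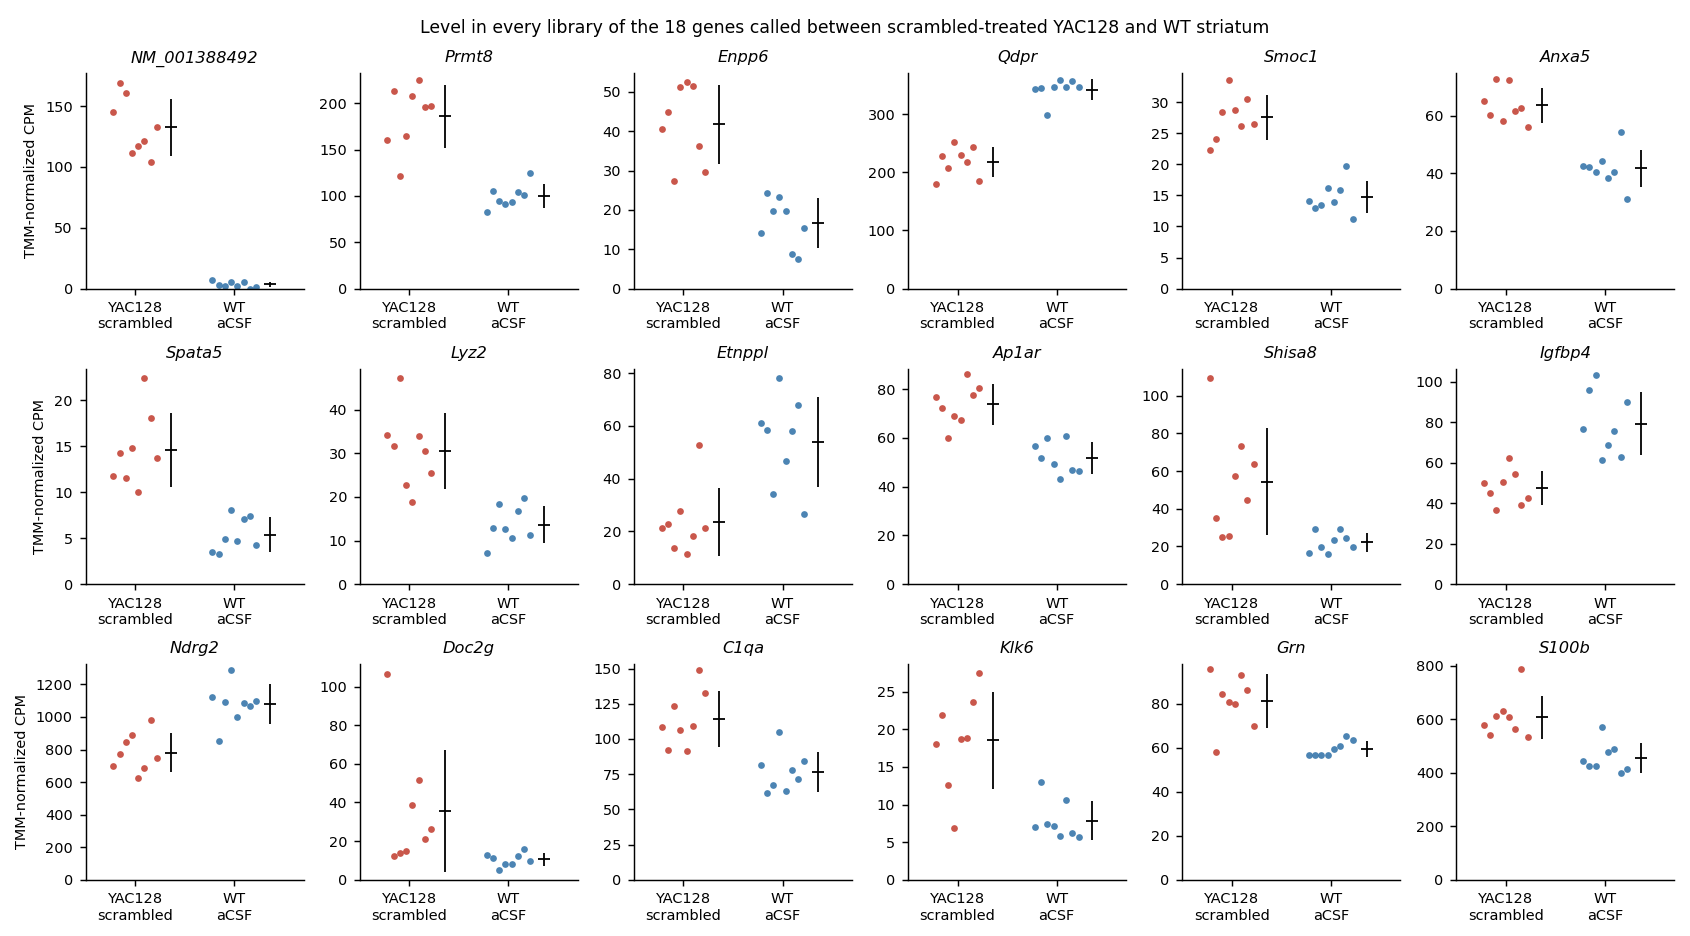
TMM-normalized CPM (vertical axes, linear, from 0) of the 18 called genes in each of 8 scrambled-treated YAC128 (left, red) and 8 WT (right, blue) libraries; bars give the mean ± SD. The groups are fully separate for NM_001388492, Enpp6, Qdpr, Smoc1, Anxa5 and Spata5, and Doc2g and Shisa8 are spread widely within the scrambled group.

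Mouse Htt (ENSMUSG00000029104, chromosome 5), the endogenous huntingtin gene, had 75.4 to 119.5 CPM in scrambled libraries (median 102) and 76.2 to 129.5 CPM in WT libraries (median 85.2). The ranges overlapped, and the log2 fold change of 0.16 ± 0.12 was not called (adjusted p = 0.681). NM_001388492, which has no mouse Ensembl identifier and no annotation in the sources used here, had 104 to 169 CPM in scrambled libraries (median 127). In WT libraries it had 0 to 7.06 CPM (median 2.85), from 0 to 6 counts per library. Every scrambled library lay far above every WT library, so the feature separates the libraries as their genotype labels do. Its log2 fold change was 5.15 ± 0.23 (adjusted p = 7.09e-20). It did not differ detectably between the scrambled and aCSF-treated YAC128 groups (133 ± 23.5 against 144 ± 23.9 CPM, SD, n = 8 each, adjusted p = 0.829).

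Oligodendrocyte genes gave calls in both directions. Enpp6 (ENSMUSG00000038173, chromosome 8) encodes a choline phosphodiesterase that is highest in oligodendrocytes that have just begun to differentiate. It had 27.4 to 52.5 CPM in scrambled libraries (median 42.7) and 7.41 to 24.3 CPM in WT libraries (median 17.6). The groups did not overlap, and the rise was 2.54-fold (95% interval 1.97 to 3.28; log2 fold change 1.35 ± 0.19, adjusted p = 3.97e-05). Qdpr (ENSMUSG00000015806, chromosome 5), the dihydropteridine reductase that regenerates tetrahydrobiopterin, had 180 to 252 CPM in scrambled libraries (median 223). In WT libraries it had 298 to 359 CPM (median 346). All 8 scrambled libraries were below all 8 WT libraries, and Qdpr fell 1.57-fold (log2 fold change -0.65 ± 0.09, adjusted p = 3.97e-05). Klk6 (ENSMUSG00000050063, chromosome 7), a secreted serine protease of mature oligodendrocytes, had 6.90 to 27.5 CPM in scrambled libraries (median 18.8). In WT libraries it had 5.63 to 12.96 CPM (median 7.13). It was higher than in every WT library in 6 of 8 scrambled libraries, and the log2 fold change was 1.22 ± 0.27 (adjusted p = 0.0442).

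Of 26 tested genes of mature oligodendrocytes 6 had higher and 20 lower values, 1 rose (Klk6) and 1 fell (Qdpr), and the median log2 fold change was -0.08. At an unadjusted p under 0.05, a level that 9.8% of all tested genes reached, 4 of the 26 had higher and 6 lower values. Over all tested genes the median was 0.01, with 5496 higher and 5183 lower. Mbp, the myelin basic protein gene, averaged 2491 ± 201 CPM in scrambled and 2669 ± 260 CPM in WT libraries (SD, n = 8 each; adjusted p = 0.808). The myelin-associated gene Mobp stood at -0.46 ± 0.12 (adjusted p = 0.126), Anln, which encodes the actin-binding protein anillin, at 1.26 ± 0.32 (adjusted p = 0.0952; called in DESeq2, adjusted p = 0.0449), and the lipocalin gene Apod at 0.41 ± 0.11 (adjusted p = 0.132). Among 9 tested genes of newly formed oligodendrocytes Enpp6 was the only call, 6 values were higher and the median was 0.22. Gpr17, a receptor that marks the same stage, had a value of 0.50 ± 0.22 (adjusted p = 0.450). Oligodendrocyte precursor genes had a median of 0.05 over 13 tested members with 0 called in edgeR and 2 at an unadjusted p under 0.05.

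The lists of homeostatic microglia, activated microglia and complement held 2 called genes, C1qa and Lyz2, and both rose. Lyz2 (ENSMUSG00000069516, chromosome 10), the lysozyme of myeloid cells, had 18.7 to 47.3 CPM in scrambled libraries (median 31.2) and 7.06 to 19.7 CPM in WT libraries (median 12.8). It was above every WT library in 7 of 8 scrambled libraries and rose by 1.16 ± 0.22 on the log2 scale (adjusted p = 0.00520). C1qa (ENSMUSG00000036887, chromosome 4), a chain of the C1q complex that starts the classical complement pathway, had 91.2 to 149 CPM in scrambled libraries (median 109) and 61.6 to 105 CPM in WT libraries (median 74.9). The ranges overlapped in part, and the rise was 0.56 ± 0.12 (adjusted p = 0.0324). Grn (ENSMUSG00000034708, chromosome 11), progranulin, a secreted and lysosomal protein of microglia and neurons, had 58.0 to 95.8 CPM in scrambled libraries and 56.4 to 65.4 CPM in WT libraries. It was above every WT library in 7 of 8 scrambled libraries and rose by 0.45 ± 0.10 (adjusted p = 0.0444). Grn belongs to the lysosome and autophagy list, in which it was the only call among 30 tested members, 20 had lower values and the median was -0.05.

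Of 18 tested genes of homeostatic microglia 13 had higher values, 1 rose (C1qa) and the median log2 fold change was 0.22. At an unadjusted p under 0.05, which 9.8% of all tested genes reached, 6 of the 18 were higher and 1 lower. Trem2, a lipid-sensing receptor, had a value of 0.55 ± 0.17 (adjusted p = 0.228), and its signalling adaptor Tyrobp one of 0.40 ± 0.13 (adjusted p = 0.266). The matrix gene Olfml3 pointed the other way, at -0.61 ± 0.19 (adjusted p = 0.197). Of 13 tested genes of activated microglia and phagocytes 8 had higher values, 1 rose (Lyz2) and the median was 0.17. At an unadjusted p under 0.05, 2 of the 13 were higher and 0 lower. Of 6 tested complement genes 4 had higher values, C1qa, C1qb (0.29 ± 0.11, adjusted p = 0.369), C1qc (0.35 ± 0.16, adjusted p = 0.462) and C4b (0.43 ± 0.17, adjusted p = 0.389). Each of these 4 had an unadjusted p under 0.05. C1qa, C1qb and C1qc are also in the homeostatic microglia list. Interferon-response and MHC class I genes had higher values in 10 of 11 tested members and a median of 0.30, with 0 called in edgeR and 4 at an unadjusted p under 0.05. B2m, the light chain of MHC class I, had 103 ± 16.7 CPM in scrambled and 65.9 ± 13 CPM in WT libraries (SD, n = 8 each; 0.64 ± 0.15, adjusted p = 0.0763; called in DESeq2, adjusted p = 0.0264). Ifitm3, a membrane protein that restricts virus entry, had a value of 0.58 ± 0.15 (adjusted p = 0.114; called with the no-feature share as covariate, adjusted p = 0.0444), and the MHC class I heavy chain gene H2-K1 one of 0.43 ± 0.17 (adjusted p = 0.390). Of 12 lymphocyte markers 2 were abundant enough to be tested, Cd4 (log2 fold change -0.07 ± 0.32, adjusted p = 0.969) and the immunoglobulin heavy chain gene Ighm (0.07 ± 0.24, adjusted p = 0.956). They summed to 51.9 to 86.5 CPM in scrambled and 39.6 to 85.8 CPM in WT libraries. Cd3d and Cd3e had no count in any of the 16 libraries, and the highest count of an untested marker in any library was 97.

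**Figure D2:**
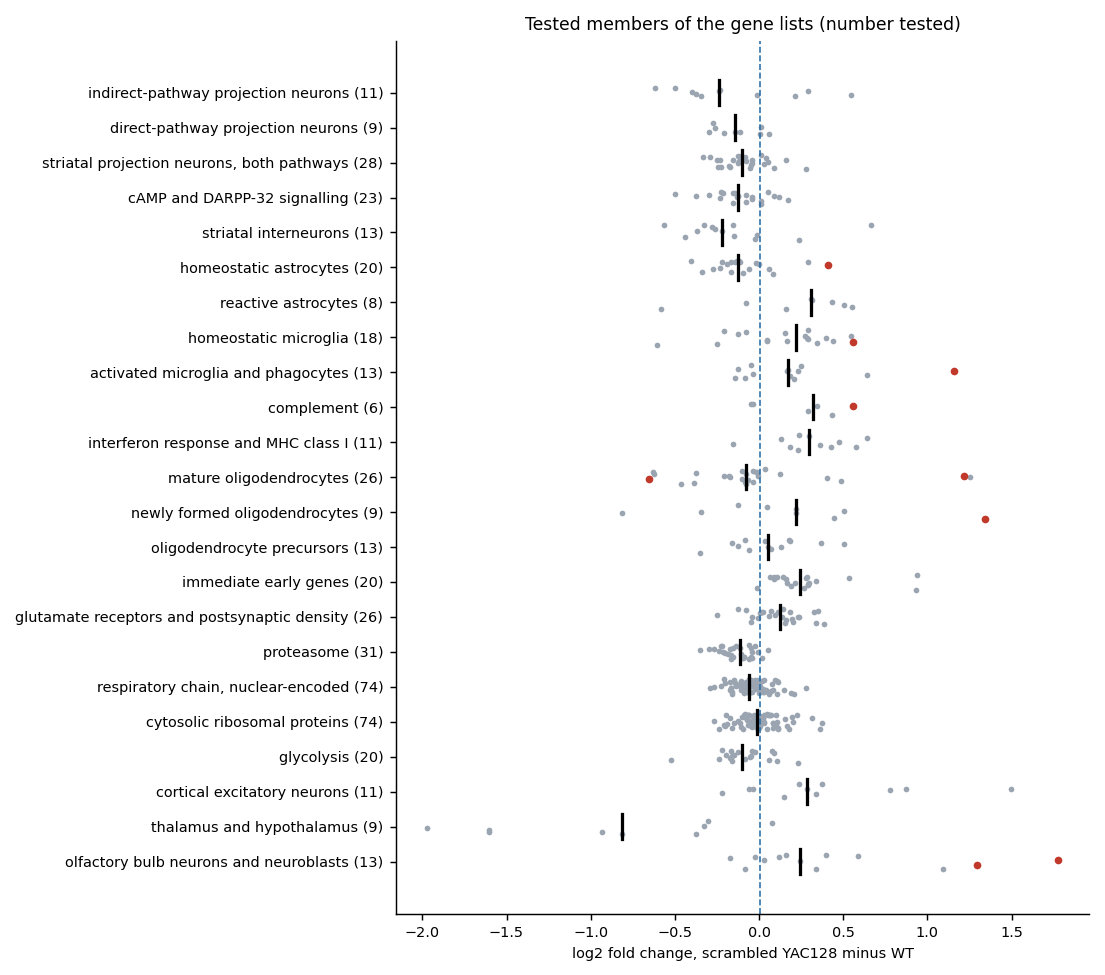
Log2 fold change, scrambled-treated YAC128 minus WT (horizontal axis), of each tested gene in 23 lists, with the number tested in parentheses. The dashed line marks the median of all tested genes (0.01). Grey points are genes not called, red points are called genes and black bars are list medians, which lie between -0.24 and 0.32 except for the thalamus and hypothalamus list at -0.81.

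Among genes that astrocytes express, Etnppl and Ndrg2, which belong to none of the lists used here, fell, and S100b of the homeostatic astrocyte list rose. Etnppl (ENSMUSG00000019232, chromosome 3), a phospholyase that breaks down phosphoethanolamine, had 11.2 to 52.8 CPM in scrambled libraries (median 21.2) and 26.8 to 78.3 CPM in WT libraries (median 58.2). All scrambled libraries except replicate 7 were at or below 27.6 CPM, and Etnppl fell (log2 fold change -1.24 ± 0.24, adjusted p = 0.0111). Replicate 7 also had the highest sum of thalamus and hypothalamus markers among scrambled libraries (1094 CPM). WT replicate 8 was lowest among WT libraries in both, while WT replicate 2 had 58.3 CPM of Etnppl at a low marker sum (225 CPM). Whether the levels are linked was not tested. With the thalamus and full olfactory bulb sums described below as covariates, Etnppl was not called (-0.98, adjusted p = 0.0900). It stayed called when Shisa8 and Doc2g were taken out of the olfactory bulb sum. With the cortex and choroid plexus sums it was not called (-0.93, adjusted p = 0.0597). Ndrg2 (ENSMUSG00000004558, chromosome 14), a protein of the N-myc downstream-regulated family, averaged 782 ± 118 CPM in scrambled and 1077 ± 123 CPM in WT libraries (SD, n = 8 each). It fell (log2 fold change -0.46 ± 0.10, adjusted p = 0.0307). With the thalamus and full olfactory bulb sums Ndrg2 was not called (-0.34, adjusted p = 0.304). It was also not called without Shisa8 and Doc2g in that sum (-0.39, adjusted p = 0.135). With the cortex and choroid plexus sums it stood at -0.39 (adjusted p = 0.0898). S100b (ENSMUSG00000033208, chromosome 10), a calcium-binding protein of astrocytes and some oligodendrocytes, averaged 608 ± 80.0 CPM in scrambled and 456 ± 55.6 CPM in WT libraries (SD, n = 8 each) and rose by 0.41 ± 0.09 (adjusted p = 0.0498). S100b was the only call among 20 tested homeostatic astrocyte genes, of which 16 had lower values, with a median of -0.13 (2 higher and 4 lower at an unadjusted p under 0.05). Slc1a2, the main glutamate transporter of astrocytes, had a value of -0.13 ± 0.08 (adjusted p = 0.618). Of 8 tested genes of reactive astrocytes 6 had higher values and the median was 0.31, with 0 called. At an unadjusted p under 0.05, 3 of them were higher and 1 lower. Gfap, the filament protein of reactive astrocytes, had a value of 0.31 ± 0.19 (adjusted p = 0.598). The alarmin Il33 of the same list pointed the other way. It was lower in all 8 scrambled libraries than in any WT library (30.5 to 46.4 against 46.6 to 79.2 CPM). Its log2 fold change of -0.58 ± 0.16 was not called (adjusted p = 0.125).

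Smoc1 and Igfbp4 encode secreted proteins and belong to none of the lists used here. Smoc1 (ENSMUSG00000021136, chromosome 12), a calcium-binding matrix protein that modulates bone morphogenetic protein signalling, had 22.4 to 33.5 CPM in scrambled libraries (median 27.5) and 11.3 to 19.7 CPM in WT libraries (median 14.1). The groups did not overlap, and Smoc1 rose by 0.88 ± 0.16 (adjusted p = 0.00475). Igfbp4 (ENSMUSG00000017493, chromosome 11), a binding protein of insulin-like growth factors, averaged 47.5 ± 8.51 CPM in scrambled and 79.2 ± 15.5 CPM in WT libraries (SD, n = 8 each). It fell (log2 fold change -0.72 ± 0.15, adjusted p = 0.0229), with 7 of 8 scrambled libraries below every WT library.

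Prmt8 (ENSMUSG00000030350, chromosome 6), a membrane-bound arginine methyltransferase found almost exclusively in brain, had 122 to 225 CPM in scrambled libraries (median 196). In WT libraries it had 82.4 to 125 CPM (median 97.8). Only scrambled replicate 3 fell within the WT range, and Prmt8 rose 1.87-fold (95% interval 1.58 to 2.20; log2 fold change 0.90 ± 0.12, adjusted p = 3.28e-05). Ap1ar (ENSMUSG00000074238, chromosome 3), an adaptor that links the AP-1 coat of endosomes to a kinesin motor, averaged 73.8 ± 8.29 CPM in scrambled and 51.9 ± 6.58 CPM in WT libraries (SD, n = 8 each) and rose by 0.51 ± 0.10 (adjusted p = 0.0124).

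Chromosome 3 carried 4 of the called genes, Anxa5, Spata5, Ap1ar and Etnppl, and 521 of the tested genes (4.88%). Anxa5 (ENSMUSG00000027712), annexin A5, which binds phosphatidylserine in the presence of calcium, had 56.2 to 72.6 CPM in scrambled libraries (median 62.1) and 31.0 to 54.3 CPM in WT libraries (median 41.3). Spata5 (ENSMUSG00000027722), an ATPase of the AAA family that acts in ribosome assembly, had 10.00 to 22.5 CPM in scrambled libraries (median 14) and 3.24 to 8.10 CPM in WT libraries (median 4.78). Neither gene's groups overlapped. Anxa5 rose by 0.60 ± 0.11 (adjusted p = 0.00475) and Spata5 by 1.38 ± 0.25 (adjusted p = 0.00477). In the GRCm38 gene order 14 protein-coding genes lie between them, of which 4 were tested and not called, Exosc9 (-0.07), 4932438A13Rik (0.33), Il2 (-0.26) and Cetn4 (0.01).

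Shisa8 and Doc2g were called on the strength of some scrambled libraries. Shisa8 (ENSMUSG00000096883, chromosome 15), an auxiliary subunit of AMPA receptors, had 25.3 to 109.7 CPM in scrambled libraries (median 51.0) and 16.2 to 29.2 CPM in WT libraries (median 21.5). Doc2g (ENSMUSG00000024871, chromosome 19), a protein with paired C2 domains, had 12.0 to 106.5 CPM in scrambled libraries (median 23.7) and 4.91 to 16.05 CPM in WT libraries (median 10.6). Scrambled replicate 1 had the highest value of both genes and scrambled replicate 6 the next highest. The log2 fold changes were 1.30 ± 0.27 for Shisa8 (adjusted p = 0.0229) and 1.78 ± 0.38 for Doc2g (adjusted p = 0.0307). Without scrambled replicate 1 neither was called (1.08, adjusted p = 0.0854, and 1.31, adjusted p = 0.121). Both genes are strongly expressed in the olfactory bulb, and a list of 13 tested olfactory bulb and neuroblast genes that holds both was drawn up after their values were seen. Its summed level was 414 to 818 CPM in scrambled libraries, with the maximum again in replicate 1, and 367 to 454 CPM in WT libraries. Without Shisa8 and Doc2g the other 11 genes of the list summed to 367 to 602 CPM in scrambled libraries, the maximum in replicate 1 and the next in replicate 6 (506 CPM), and to 343 to 429 CPM in WT libraries. With this sum of 11 genes and the thalamus and hypothalamus sum as covariates, Shisa8 had a value of 0.86 (adjusted p = 0.184) and Doc2g one of 1.09 (adjusted p = 0.162). Because the list was drawn up after both genes were seen, this fit does not test the source of their higher values.

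Projection neuron genes had mostly lower values with 0 called in edgeR. Of 11 tested indirect-pathway genes 8 had lower values (median -0.24, 2 lower and 1 higher at an unadjusted p under 0.05). The higher one was Ptprm (0.55 ± 0.20, adjusted p = 0.362). Of 9 direct-pathway genes 6 had lower values (median -0.14, 0 at an unadjusted p under 0.05). Of 28 genes shared by both pathways 21 had lower values (median -0.10, 0 at an unadjusted p under 0.05), but within the number series that begins with 18 the median was 0.10. Penk had 1340 to 3488 CPM in scrambled libraries (median 2858) and 2482 to 5694 CPM in WT libraries (median 4272). Only scrambled replicate 5 lay below the WT range, and the log2 fold change of -0.62 ± 0.16 was not called (adjusted p = 0.113). Penk was lower and called in only 4 of the 15 other settings tried. It was called in DESeq2 (-0.62, adjusted p = 0.0482) and without a filter on low counts (-0.63, adjusted p = 0.0485). The other calls came with the thalamus and olfactory bulb sums as covariates, which were chosen after seeing the data. With the full olfactory bulb sum Penk stood at -0.73 (adjusted p = 0.0297) and with that of 11 genes at -0.74 (adjusted p = 0.00918). Over the fits that left out 1 library its adjusted p was 0.0386 (without WT replicate 7) to 0.221, and it was called in 1 of the 16. Adora2a averaged 61.8 ± 18.4 CPM in scrambled and 87.7 ± 19.6 CPM in WT libraries (SD, n = 8 each; -0.50 ± 0.17, adjusted p = 0.321). Drd2 had a value of -0.37 ± 0.19 (adjusted p = 0.524), Drd1 one of -0.30 ± 0.17 (adjusted p = 0.591) and the dynorphin precursor Pdyn one of -0.26 ± 0.15 (adjusted p = 0.583). Ppp1r1b, which encodes DARPP-32, had a value of -0.23 ± 0.19 (adjusted p = 0.719), the substance P precursor Tac1 one of -0.21 ± 0.14 (adjusted p = 0.655), and the phosphodiesterase Pde10a one of -0.04 ± 0.23 (adjusted p = 0.971). The cannabinoid receptor Cnr1 stood at 0.16 ± 0.19 (adjusted p = 0.809) and the sodium channel subunit Scn4b at -0.29 ± 0.26 (adjusted p = 0.740). Markers of interneurons had lower values in 11 of 13 tested members (median -0.22, 0 called, 1 at an unadjusted p under 0.05).

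Activity-regulated and housekeeping genes also gave 0 calls in edgeR, with list medians of -0.11 to 0.24. Immediate early genes, which neurons induce on activity, had higher values in 19 of 20 tested members (median 0.24, 3 at an unadjusted p under 0.05). The nuclear receptor gene Nr4a2 stood at 0.93 ± 0.32 (adjusted p = 0.274), Fosb at 0.54 ± 0.23 (adjusted p = 0.441) and the neurotrophin gene Bdnf at 0.94 ± 0.43 (adjusted p = 0.465). Glutamate receptor and postsynaptic density genes had higher values in 20 of 26 tested members (median 0.12, 3 at an unadjusted p under 0.05). Proteasome subunit genes had lower values in 29 of 31 tested members, with a median of -0.11 (6 at an unadjusted p under 0.05). Glycolysis genes had a median of -0.10 over 20 members, nuclear-encoded respiratory chain genes -0.06 over 74, and cytosolic ribosomal protein genes -0.01 over 74. Glucocorticoid-responsive genes had a median of -0.04 over 14 members. The kinase gene Sgk1 had 46.3 to 61.8 CPM in scrambled and 62.0 to 126 CPM in WT libraries, which did not overlap (-0.57 ± 0.15, adjusted p = 0.132).

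Markers of tissue next to the striatum differed between libraries of both groups. Thalamus and hypothalamus markers summed to 206 to 1094 CPM in scrambled libraries (420 ± 297, SD, n = 8) and 160.5 to 1928 CPM in WT libraries (883 ± 673, SD, n = 8), with lower values in 8 of 9 tested members. The vesicular glutamate transporter Slc17a6 had a value of -1.61 ± 0.44 (adjusted p = 0.141) and the vasopressin gene Avp one of -1.97 ± 0.92 (adjusted p = 0.475). Cortical excitatory neuron markers summed to 2216 to 5585 CPM in scrambled and 1908 to 3763 CPM in WT libraries. Slc17a7, the cortical vesicular glutamate transporter, reached 689 CPM in scrambled replicate 5, in which Penk was lowest. Choroid plexus and ependyma markers summed to 218 to 262 CPM in scrambled and 152 to 285 CPM in WT libraries. With the thalamus sum and the olfactory bulb sum without Shisa8 and Doc2g as covariates 16 genes were called (9 higher, 7 lower), 12 of them among the 18. With the cortex and choroid plexus sums 17 were called, 12 of them among the 18. Without scrambled replicates 1 and 5 and WT replicate 1, 14 were called, 11 of them among the 18.

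**Figure D3:**
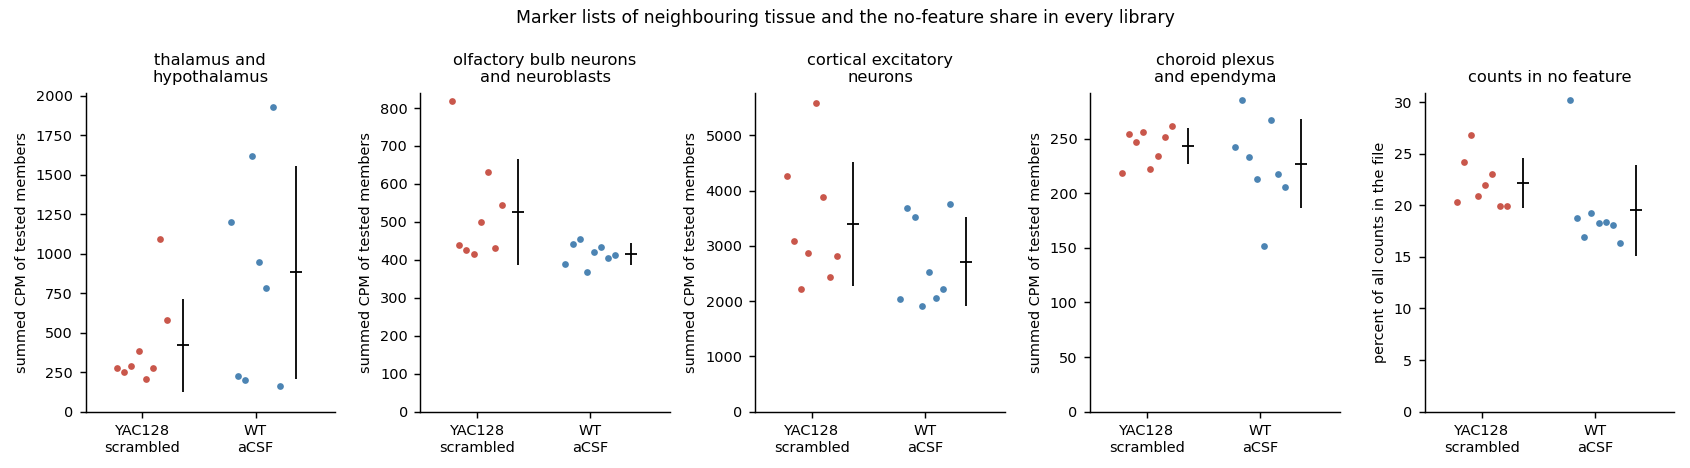
Summed TMM-normalized CPM of the tested members of 4 marker lists, and the percent of all counts in a file that fell in no feature, in each scrambled-treated YAC128 (left, red) and WT (right, blue) library, with mean ± SD (n = 8 each). Thalamus and hypothalamus markers reach 1928 CPM in WT libraries, olfactory bulb markers reach 818 CPM in scrambled replicate 1, and WT replicate 1 has the highest no-feature share at 30.2%.

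Scrambled-treated YAC128 mice differed from aCSF-treated YAC128 mice in 9 of 10679 genes (0.0843%), all higher with the scrambled oligonucleotide. This contrast holds the transgene constant and compares the scrambled and aCSF groups directly, but their libraries also differed in other ways. The no-feature share averaged 25.7% in aCSF-treated and 22.1% in scrambled-treated YAC128 libraries. The aCSF group held more libraries of the number series that begins with 18. Choroid plexus markers summed to 3920 CPM in aCSF-treated YAC128 replicate 4, and thalamus markers to 2796 CPM in replicate 2. What the series and these markers add to the calls was not tested. The contrast uses the same scrambled libraries as that with WT, so calls in both are not independent of each other. Prmt8 averaged 186 ± 34.2 CPM in scrambled-treated and 83.2 ± 18.6 CPM in aCSF-treated YAC128 libraries, a log2 fold change of 1.16 ± 0.12 (adjusted p = 1.20e-07). Lyz2 averaged 30.6 ± 8.75 CPM in scrambled-treated and 12.8 ± 5.62 CPM in aCSF-treated libraries (1.28 ± 0.21, adjusted p = 0.00222). Klk6 averaged 18.5 ± 6.43 CPM in scrambled-treated and 5.86 ± 2.97 CPM in aCSF-treated libraries (1.66 ± 0.28, adjusted p = 0.00222). C1qa rose by 0.62 ± 0.12 (adjusted p = 0.0190), C1qb by 0.58 ± 0.11 (adjusted p = 0.0182) and Tyrobp by 0.62 ± 0.13 (adjusted p = 0.0443). The remaining calls were the ribosomal protein gene Rps26 (0.49 ± 0.10, adjusted p = 0.0443), the potassium channel Kcnh1 (0.64 ± 0.14, adjusted p = 0.0472) and the neuronal repressor Scrt1 (0.50 ± 0.11, adjusted p = 0.0472). Scrt1 stood at 85.1 ± 9.51 CPM in scrambled-treated and 60.3 ± 9.82 CPM in aCSF-treated YAC128 libraries, with 83.3 ± 14.3 CPM in WT libraries (SD, n = 8 each). Adding the no-feature share to the fit left 6 calls, all among the 9.

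**Figure D4:**
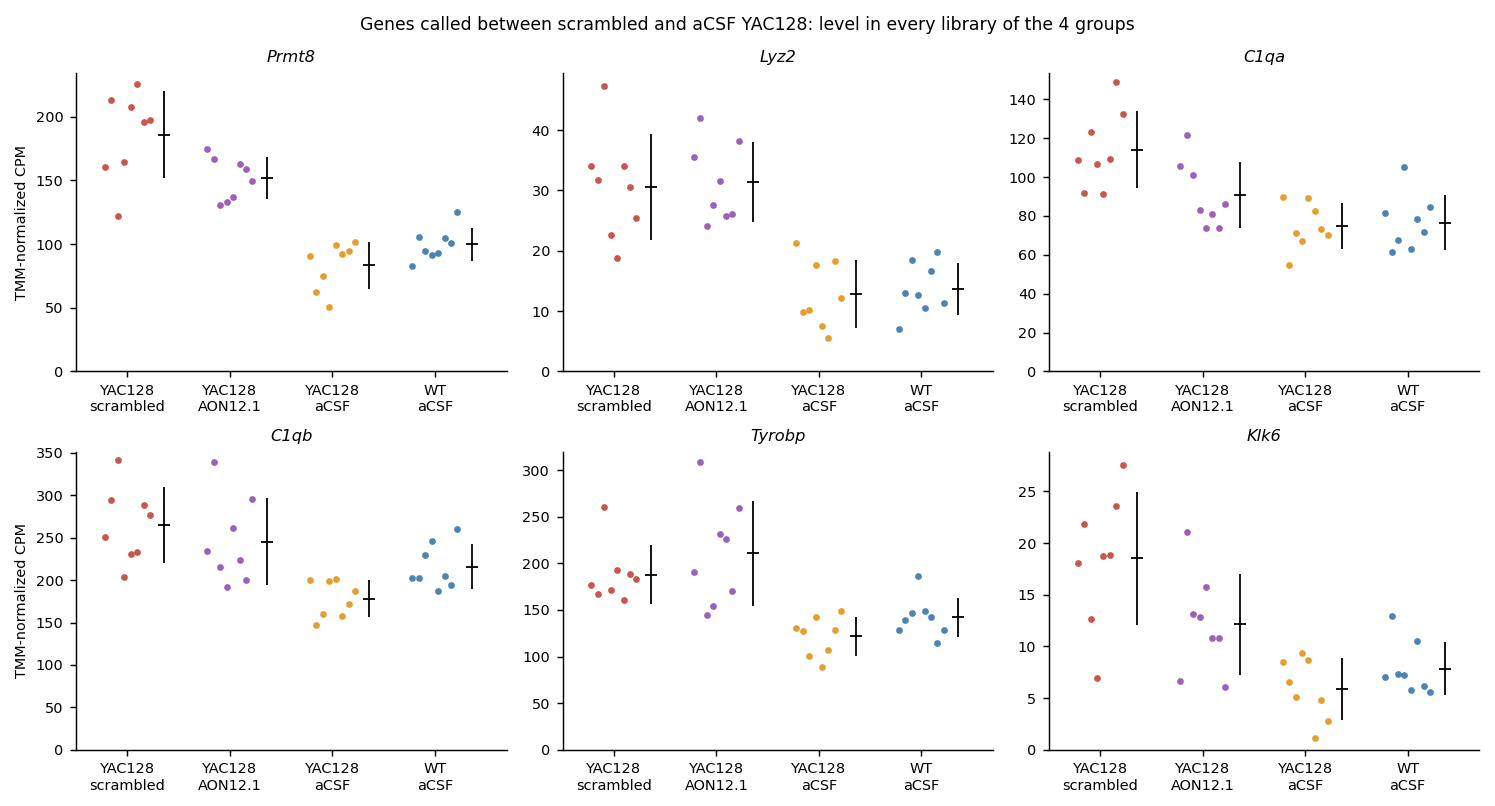
TMM-normalized CPM (vertical axes, linear, from 0) of 6 of the 9 genes called between scrambled-treated and aCSF-treated YAC128 striatum, in each library of the 4 groups, with mean ± SD (n = 8 each). Lyz2 averages 30.6 CPM in scrambled-treated and 31.4 CPM in AON12.1-treated YAC128 libraries, 12.8 CPM in aCSF-treated YAC128 and 13.7 CPM in WT libraries.

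The same 8 WT libraries served for each YAC128 group, so the values against WT that follow share their controls and are set side by side only. For Enpp6 the log2 fold change against WT was 1.35 ± 0.19 in scrambled-treated, 1.15 ± 0.19 in AON12.1-treated and 1.08 ± 0.19 in aCSF-treated YAC128 mice. For Spata5 it was 1.38 ± 0.25, 1.57 ± 0.25 and 1.43 ± 0.25 in the same order of groups, and for Anxa5 0.60 ± 0.11, 0.44 ± 0.11 and 0.54 ± 0.11. The scrambled-minus-aCSF differences of these genes were 0.27 ± 0.16 (adjusted p = 0.603), -0.05 ± 0.21 (adjusted p = 0.983) and 0.06 ± 0.10 (adjusted p = 0.878), and a p that misses the threshold does not show that the groups are alike. Lyz2 stood at 1.16 ± 0.22 in scrambled-treated, 1.17 ± 0.22 in AON12.1-treated and -0.12 ± 0.24 in aCSF-treated mice. Prmt8 stood at 0.90 ± 0.12, 0.60 ± 0.12 and -0.26 ± 0.13 in the same order. S100b stood at 0.41 ± 0.09, 0.49 ± 0.09 and 0.09 ± 0.09, with a scrambled-minus-aCSF difference of 0.32 ± 0.09 that was not called (adjusted p = 0.242). Etnppl was at -1.24 ± 0.24, -1.09 ± 0.24 and -0.69 ± 0.23, and its scrambled-minus-aCSF difference of -0.54 ± 0.25 was not called (adjusted p = 0.478).

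**Figure D5:**
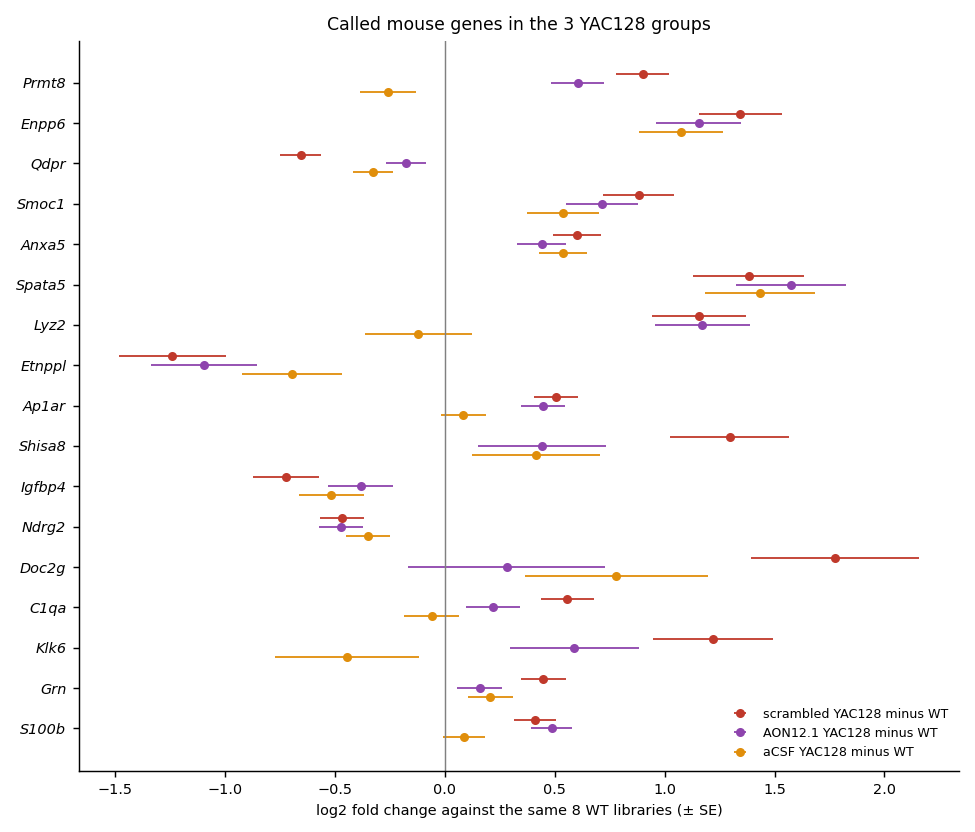
Log2 fold change ± SE against the same 8 WT libraries (horizontal axis, 0 marked by a line) of the 17 called mouse genes in scrambled-treated (red), AON12.1-treated (purple) and aCSF-treated (orange) YAC128 mice. Enpp6, Spata5 and Anxa5 lie to the right of 0 in each group, and the aCSF values of Prmt8, Lyz2 and Klk6 lie at or to the left of 0.

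Qdpr stood out by its difference from the AON12.1 group. Its log2 fold change against WT was -0.65 ± 0.09 in scrambled-treated, -0.17 ± 0.09 in AON12.1-treated and -0.33 ± 0.09 in aCSF-treated mice. Between scrambled-treated and AON12.1-treated YAC128 mice Qdpr fell (log2 fold change -0.48 ± 0.09, adjusted p = 0.00892), and the scrambled libraries enter both of these contrasts. In all, 15 of 10679 genes (0.14%) were called between these 2 groups, 5 higher (0.0468%) and 10 lower (0.0936%) with the scrambled oligonucleotide. The other 14 had log2 fold changes of -0.50 to 0.43 in scrambled-treated mice against WT, and none of the 14 was called there. The complement gene C4b is an example, at 53.1 ± 11.6 CPM in scrambled-treated YAC128, 122 ± 33.1 CPM in AON12.1-treated YAC128 and 38.9 ± 11.1 CPM in WT libraries (SD, n = 8 each). Its difference between scrambled-treated and AON12.1-treated mice was -1.19 ± 0.15 (adjusted p = 6.67e-06).

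The firmness of the 18 calls varied with the libraries that entered the fit. In 16 fits that each left out 1 library, NM_001388492, Prmt8, Enpp6, Qdpr, Anxa5, Smoc1, Spata5, Lyz2, Etnppl and Ap1ar were called in all 16. Igfbp4 was called in 12, Shisa8 in 11, Ndrg2 in 8, Doc2g and C1qa in 7, Grn in 5, and Klk6 and S100b in 3. Each of the 18 kept its sign in all of these fits. Other settings changed the filter, scaling, covariates, tool or libraries. Over these NM_001388492 was called in 15 of 15, Prmt8 and Qdpr in 14 of 15, Enpp6 in 13 of 14 and Anxa5 in 13 of 15. Smoc1 and Lyz2 were called in 12 of 14, Spata5 in 11 of 13, Ap1ar in 11 of 15 and Etnppl in 8 of 14. Igfbp4 was called in 12 of 15, C1qa in 10 of 15, Ndrg2 in 8 of 15 and Shisa8 in 7 of 14. Doc2g and Klk6 were called in 6 of 14, S100b in 6 of 15 and Grn in 4 of 15. In a fit of these 2 groups alone C1qa was not called (adjusted p = 0.0525). Within the animal number series that begin with 18 and with 19 all 18 again had the same sign, though these are the libraries that gave the calls. The group differences of mean log2(CPM + 1) were 0.98 and 0.82 for Prmt8, 1.13 and 1.48 for Enpp6, and -0.69 and -0.66 for Qdpr. The difference between the groups was also tested for dependence on the animal number series. In edgeR 0 genes were called for that interaction, with 539 of 10679 at an unadjusted p under 0.05. The series that begins with 18 holds few libraries of either group, so this test could miss a dependence. Lyz2 counts are uncertain where reads match its near copy Lyz1. Since it is not stated that strand was used in counting, Spata5, Ap1ar, Grn and S100b may hold reads of genes that overlap them on the opposite strand (Nudt6, Tifa, Fam171a2 and Dip2a).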

How the data were processed

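Libraries were made from 100 ng of total RNA by a modified mcSCRB-seq method, in which an oligo-dT primer carries a sample barcode and a unique molecular identifier, per the labels' protocols, so counts come from the 3' parts of polyadenylated RNA. The deposited files hold raw whole-number counts per gene, which the authors did not normalize. Per the submitters' processing notes the build was GRCm39, and the tools were HTSeq 0.12.4, STAR 2.7.5a, cutadapt 2.10 and FastQC. The use of identifiers to collapse reads and the use of strand are not given in the sources used here. Each file has 55415 features and 5 summary lines, which entered neither library sizes nor tests. Names and chromosomes came from a GRCm38 annotation (52133 features matched), so coordinates are not given.

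Genes were kept by filterByExpr (minimum count 10, minimum total 15). All 32 libraries entered an edgeR 4.0.16 quasi-likelihood fit in R 4.3.3 with TMM factors and group coefficients, from which the contrasts were taken, with Benjamini-Hochberg adjustment over 10679 genes. Group levels are TMM-normalized CPM, and SE was taken from the log2 fold change and its F statistic. Alternatives used limma 3.58.1 (voom), DESeq2 1.42.0, other filters and scaling, covariates, and subsets of libraries. No libraries of a group were copies of each other, and each comes from a separately numbered animal.

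Named genes are NM_001388492, Htt, the 15 calls of smallest p per direction, called list members, 20 reference genes and up to 5 members of a described list by smallest p. Other genes named here, which are those called against the other YAC128 groups, those between Anxa5 and Spata5 and those whose groups do not overlap, were taken by rule after values were seen. The comparison, the lists and the genes were chosen with earlier results of these data known. Lists are described by counts and medians, with no test.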

Additional observations from a re-analysis of the deposited data

Results flagged for a closer look

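Of 78 groups of 8 libraries examined with Dixon's test, 8 held a library far from the rest, and chance alone gives about 1 in 20. In scrambled replicate 7, Etnppl stood at 52.8 CPM (next highest 27.6 CPM) and S100b at 787 CPM (next highest 631 CPM). In scrambled replicate 1, Doc2g stood at 106.5 CPM (next highest 51.5 CPM). In scrambled replicate 5, Slc17a7 stood at 689 CPM (next highest 251.5 CPM) and Penk at 1340 CPM (next lowest 2488 CPM). Among WT libraries, Qdpr stood at 298 CPM in replicate 3 (next lowest 343 CPM). In WT replicate 1, Htt stood at 129.5 CPM (next highest 94.4 CPM) and the no-feature share at 30.2% (next highest 19.2%). What set these libraries apart was not tested.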

How the results depend on the processing

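Of the settings tried, none reversed a called gene. The 18 calls between scrambled-treated YAC128 and WT striatum became 39 in DESeq2 (21 higher, 18 lower), 33 without a filter (18 higher, 15 lower), 28 with the share of no-feature counts as covariate (24 higher, 4 lower) and 11 with the thalamus and olfactory bulb sums, of which the second holds the called genes Shisa8 and Doc2g. With both taken out of the sum it was 16 (9 higher, 7 lower). These sums were chosen after seeing the data. The number series that begin with 18 and with 19 gave 3 and 4 calls, with fewer libraries in each fit. Of these, 1 and 4 were among the 18. RLE scaling gave 17, voom 13 and the number series as a covariate 16, all among the 18. A minimum count of 50 gave 13 (10 among the 18) and these 2 groups alone 15 (13 among the 18). Libraries with a no-feature share of up to 25% gave 19 (11 among the 18). Leaving out 1 library at a time gave 10 to 27 calls. The 9 calls against aCSF-treated YAC128 became 23 in DESeq2, which gave 3 of the 9 no adjusted p. The difference in no-feature share was 1.95 to 4.13 percentage points without 1 library at a time. The exact permutation p was 0.000466 without WT replicate 1 and 0.147 to 0.317 without any other single library. Within the series that begins with 19 the difference was 4.03 points (exact permutation p = 0.00649). List medians changed sign with a minimum count of 50 for interneurons (0.01), newly formed oligodendrocytes (-0.10) and activated microglia (-0.02), within the series that begins with 18 for genes shared by both projection pathways (0.10), glucocorticoid-responsive genes (0.15) and lysosomal genes (0.03), and with the thalamus and full olfactory bulb sums for mature oligodendrocytes (0.03). Over 15 settings the median changed sign in 3 for potassium channels (-0.02 to 0.13), 4 for pericytes (-0.07 to 0.11), 5 for brain endothelium (-0.04 to 0.07) and 5 for cytosolic ribosomal proteins (-0.04 to 0.02). The causes of these changes were not tested. No paired analysis was possible because the labels give each library only its own animal number. Genes below the minimum count of 10 were not tested.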

Other observations

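Vascular and fibroblast genes gave 0 calls in edgeR between scrambled-treated YAC128 and WT striatum. Brain endothelial genes had a median log2 fold change of 0.02 over 15 tested members, with 2 at an unadjusted p under 0.05. The organic anion transporter gene Slco1a4 of the blood-brain barrier stood at 0.89 ± 0.27 (adjusted p = 0.192). Genes of pericytes and smooth muscle had a median of 0.01 over 7 tested members, with 0 at an unadjusted p under 0.05. Synaptic vesicle genes had a median of -0.05 over 29 tested members, and potassium channel genes one of 0.08 over 23 tested members.

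Of the 11 genes whose scrambled and WT libraries did not overlap, 5 were not called in edgeR, among them Il33 and Sgk1. DESeq2 called Pkia and Tmem179 of these 5 (adjusted p = 0.0332 for each). Clstn3, a synaptic adhesion protein of the calsyntenin family, had 169 to 203 CPM in scrambled and 142 to 161 CPM in WT libraries (0.24 ± 0.09, adjusted p = 0.369). Pkia, an inhibitor of protein kinase A, had 59.8 to 96.2 CPM in scrambled and 104 to 130.5 CPM in WT libraries (-0.41 ± 0.10, adjusted p = 0.0768). Tmem179, a transmembrane protein, had 200.2 to 274 CPM in scrambled and 279 to 332 CPM in WT libraries (-0.34 ± 0.09, adjusted p = 0.114).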
